A study of Homo sapiens with 7 samples.

Results

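The comparison described here is between nascent transcription in MRC5VA cells collected 2 h after ultraviolet C (UVC) irradiation and in untreated MRC5VA cells, followed along the average gene from 2 kb before its start to 120 kb beyond it. It rests on 2 of the 7 libraries of the series, chosen by their titles: UV-2h, irradiated with 15 J per square metre, and Untreated, which received no UVC. MRC5VA is an immortalised line derived from human lung fibroblasts, both cultures were grown in the same standard medium, and each condition is a single library. The assay was global run-on sequencing (GRO-seq), in which nuclei are isolated and RNA polymerases already engaged on DNA extend their transcripts for a short time with bromouridine, so that the captured RNA marks where polymerases were transcribing. The deposited file of each library gives the mean signal over genes at each base around a position 0, treated here as the transcription start. An average of this kind holds no single gene, so no gene, sequence or marker of the line can be read from it.

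UVC light joins neighbouring pyrimidines in DNA into dimers. An RNA polymerase II that meets such a lesion in the template strand stalls, and the stalled polymerase recruits transcription-coupled repair. A polymerase must also pass a pause site shortly after the start before it enters the gene body, and many human promoters are transcribed in both directions.

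At 2 h after UVC the signal along the average gene was concentrated in its early part. With each profile scaled to its own sum from 0 to 100 kb, the UV-2h/untreated ratio was below 1 in the kilobase upstream of the start, rose past 1 within the first kilobase, and reached its maximum of 1.75 (95% counting interval 1.74 to 1.76) in the bin from 4 to 5 kb. It then fell, most steeply between 19 and 24 kb, and was below 1 from 27 kb onward. From about 37 kb it stayed within 5% of its far level, 0.790 (0.789 to 0.791) between 60 and 100 kb. The maximum was 2.21 times that level. After subtraction of a background, the lowest kilobase of each profile, this factor was 7.06 and the ratio kept falling to the end. In UV-2h that kilobase lay near the far end, so the subtraction sets its signal there to about 0 by construction. Of the 122 bins of 1 kb, 27 (22.1%) had a counting interval wholly above 1 and 95 (77.9%) one wholly below 1.

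Each condition is 1 library, so UV-2h was not tested against untreated, and no interval below includes the spread between cultures. The values of each library are whole multiples of 1 step, which gives 12057067 reads for UV-2h and 15379829 for the untreated library over the profile, and from 14722 to 93272 reads over each position. Counting errors are therefore small. Between 5 and 40 kb neighbouring bins of the ratio scattered with an SD of 0.0062 (log2), 1.17 times the counting error, and between 40 and 100 kb with an SD of 0.0086, 1.33 times the counting error. Between 100 and 120 kb the SD was 0.0099, 1.42 times the counting error.

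The deposited profiles differed in shape as well as in level. In untreated cells the deposited signal fell from 7.46 in the first kilobase to 3.94 in the bin from 4 to 5 kb. It had come down to 3.51 by 20 to 21 kb, and at 119 to 120 kb it still had 62.8% of its value at 5 to 6 kb. In the UV-2h library the signal was 7.13 in the first kilobase, 5.998 from 4 to 5 kb and 3.70 from 20 to 21 kb. It first reached 50% or less of its 5 to 6 kb value in the bin from 33 to 34 kb, and at 119 to 120 kb it had 29.8% of that value. Between 5 and 30 kb the untreated signal thus changed little: the bin from 30 to 31 kb had 94.3% of the 5 to 6 kb signal in untreated cells and 51.5% of it in UV-2h.

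**Figure D1:**
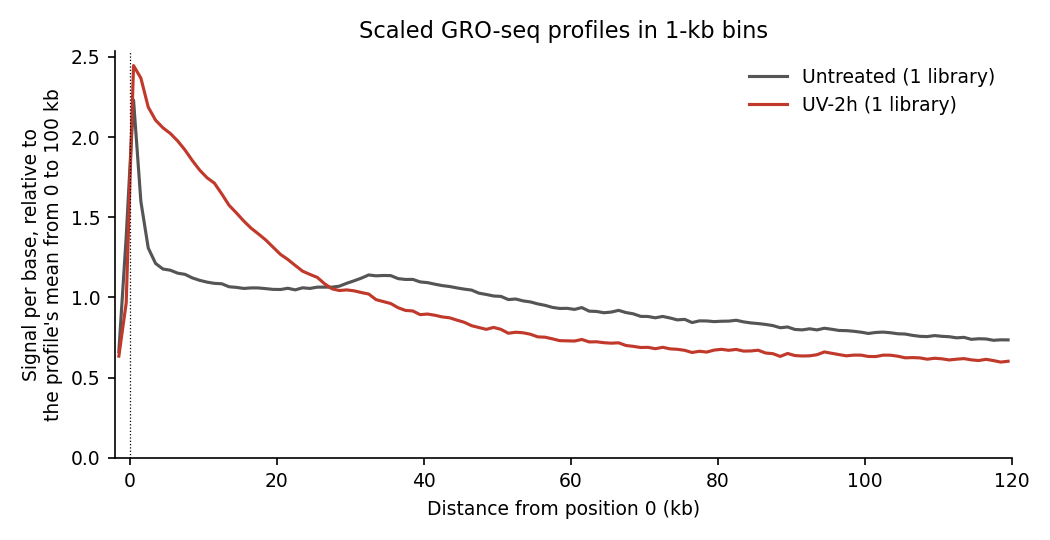
GRO-seq signal in 1-kb bins for the untreated library (grey) and the UV-2h library (red), each divided by its own mean from 0 to 100 kb, against distance from position 0 in kb. The UV-2h line lies above the untreated line from the first kilobase to 27 kb and below it from there to 120 kb.

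The start region held the lowest ratios of the whole profile. In the 2 kb upstream of position 0 the scaled ratio was 0.783 (0.779 to 0.788), with 0.956 from -2 to -1 kb and 0.700 from -1 kb to 0. At the far upstream edge, from -2000 to -1700 bp, 3 bins of 100 bp had ratios above 1, between 1.05 and 1.07. In 100-bp bins the lowest ratio, 0.581 (0.573 to 0.589), was found from -300 to -200 bp. There the untreated library had its upstream peak, with a deposited signal of 5.94, whereas UV-2h had a signal of 3.01. Whether that upstream signal is transcription in the opposite direction cannot be read from the files, because they do not give the strand.

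At the promoter-proximal peak, from 100 to 200 bp in both libraries, the deposited signal was 9.34 in untreated cells and 7.61 at 2 h. Downstream of the peak the libraries took different courses. Untreated signal declined through 7.04 at 500 to 600 bp to 6.74 at 800 to 900 bp. UV-2h signal dipped to 6.75 at 300 to 400 bp and then rose again to 7.50 at 800 to 900 bp, nearly the height of its peak at the start.

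The ratio rose from the upstream minimum over about 3 kb. The widest step between neighbouring 100-bp bins, from 0.617 to 0.804, lay just before position 0. Beyond that minimum the ratio was first above 1 in the bin from 300 to 400 bp (1.04, 1.03 to 1.05). It passed the midpoint between its lowest and highest 100-bp values at 600 to 700 bp, and reached 95% of the highest value at 2.5 to 2.6 kb. The first kilobase as a whole had a ratio of 1.10 (1.09 to 1.10). The direction of this value depended on the treatment of the profiles, since it was 0.955 on the values as deposited and 0.986 after subtraction of a background. The ratio over the 2 kb upstream of position 0 stayed below 1 under the same alternatives, although it was 0.474 after background subtraction. The background subtracted from the untreated profile was its own mean from -2 to -1 kb (2.22). By construction that setting leaves no mean untreated signal in this part of the upstream window.

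**Figure D2:**
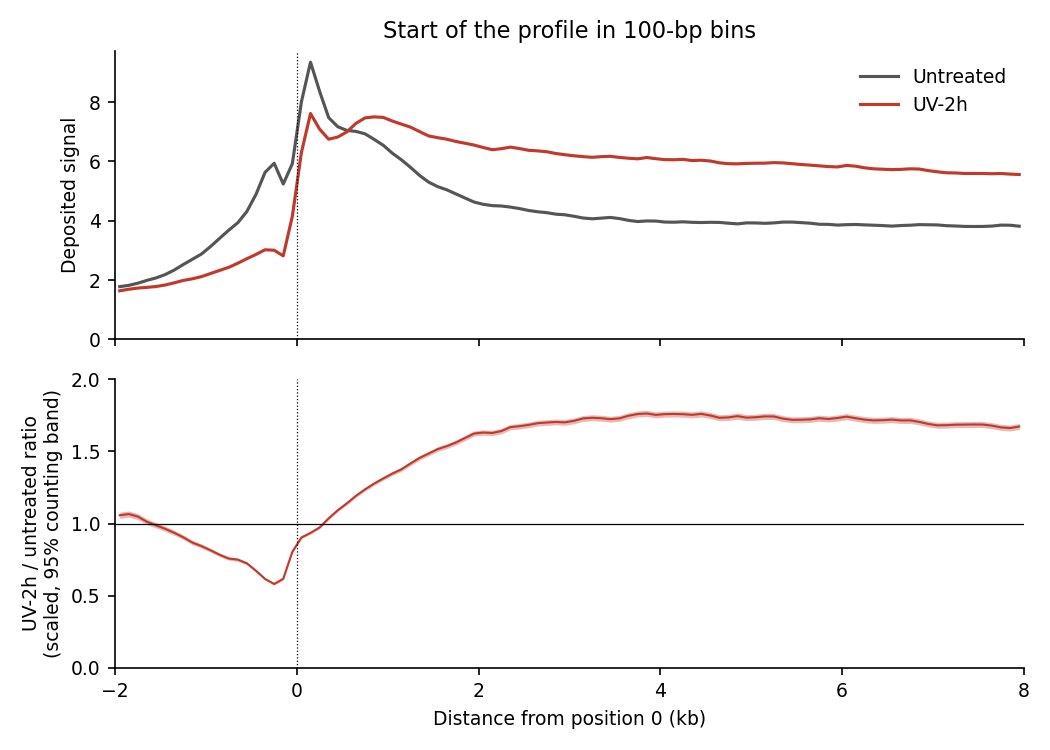
The start of the profile in 100-bp bins, from -2 to 8 kb: deposited signal of the untreated (grey) and UV-2h (red) libraries above, and the UV-2h/untreated ratio of scaled signal with its 95% counting band below. The ratio starts slightly above 1 at -2 kb, is lowest at -300 to -200 bp, passes 1 again at 300 to 400 bp and flattens beyond 2.5 kb.

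The maximum was broad. In 1-kb bins the highest ratio, 1.75 at 4 to 5 kb, had a counting interval that overlapped those of the bins on either side, at 3 to 4 kb (1.74) and 5 to 6 kb (1.73). Ratios of at least 95% of the maximum filled 6 bins in a row, from 2 to 8 kb. In 100-bp bins the highest ratio was 1.76 at 3.8 to 3.9 kb, and 28 other bins between 3.1 and 6.2 kb could not be told apart from it by counting error. Both profiles were falling across this stretch, the untreated one from 4.38 at 2 to 3 kb to 3.83 at 7 to 8 kb and the UV-2h one from 6.37 to 5.60, in deposited units.

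Beyond the maximum the ratio fell at an uneven rate. The fall began slowly, with a log2 slope of -0.21 per 10 kb between 4 and 9 kb. It was steeper in the window from 10 to 20 kb (-0.40 per 10 kb, counting SE 0.0056) and in that from 20 to 30 kb (-0.38, SE 0.0060), over which the fitted ratio fell by 24.3% and fell by 22.9%. The steepest stretch of 5 bins lay between 19 and 24 kb, with a slope of -0.45 per 10 kb. The slope was then -0.23 per 10 kb (SE 0.0062) from 30 to 40 kb and -0.066 (SE 0.0065) from 40 to 50 kb. From 50 kb to 60 kb it was -0.018 (SE 0.0069).

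Landmarks of the fall were sharply placed by counting error. The midpoint between maximum and far level, a ratio of 1.27, was passed at the bin from 19 to 20 kb (1.25, 1.24 to 1.26). The ratio was 1.02 (1.01 to 1.03) from 26 to 27 kb and 0.991 (0.983 to 0.998) from 27 to 28 kb, and no bin beyond the maximum had an interval that included 1. On the values as deposited, whose scale between libraries is not stated, the same crossing lay at 22 kb.

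**Figure D3:**
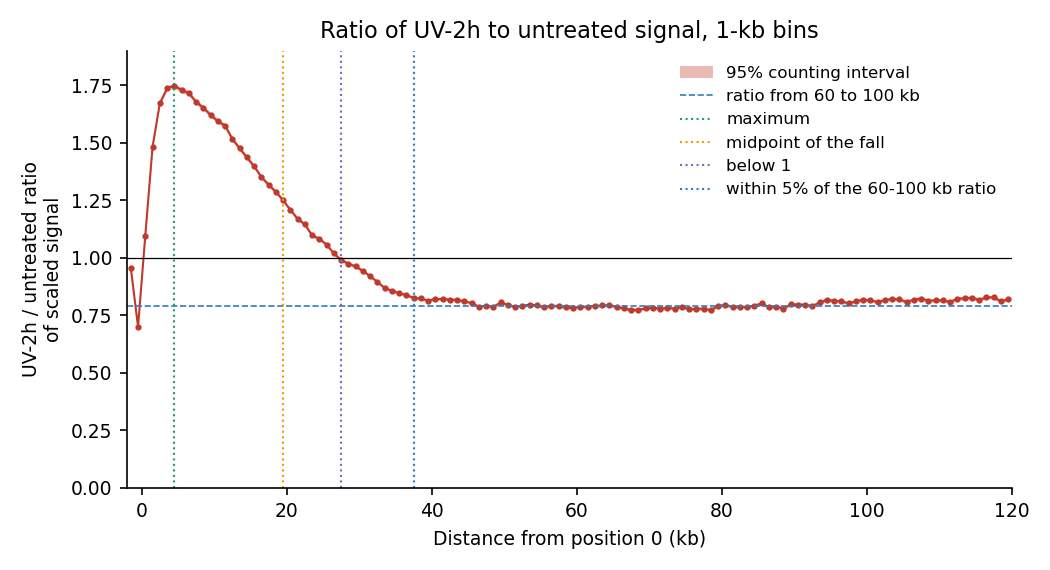
Ratio of scaled UV-2h to untreated signal in 1-kb bins (points, with the 95% counting interval as a band) against distance from position 0 in kb. Vertical dotted lines mark the bins of the maximum (4 kb), the midpoint of the fall (19 kb), the fall below 1 (27 kb) and the earliest of 5 bins in a row within 5% of the far level (37 kb), and the dashed line is the ratio from 60 to 100 kb, 0.790.

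Simple curves fitted to the 96 bins from 4 to 100 kb described the fall unequally well. A pair of joined straight lines in the log2 ratio had its joint at 37.5 kb, with a slope of -0.36 per 10 kb before it and -0.0015 after it, and a root-mean-square residual of 0.018 in the ratio. The same pair of lines fitted to the ratio itself had its joint at 33.5 kb and a residual of 0.020. The log2 slope before the joint equals a fall of 2.46% of the ratio per kb, at which the ratio would reach 50% of its value over 27.8 kb. An exponential fall to a constant had a length of 15.4 kb (counting interval 15.3 to 15.5) and a root-mean-square residual of 0.043 in the ratio. Its misses followed the distance: the curve lay above the observed ratio by 0.10 at 5 to 6 kb, below it at 15 to 16 kb by 0.077 and above it again at 35 to 36 kb by 0.068. A logistic curve, which has a shoulder before its steep part, had a residual of 0.011, with its midpoint at 16.9 kb, a width of 6.97 kb and a far level of 0.788. The logistic curve has 1 parameter more than the exponential and was chosen after the shape was seen. These fits are descriptions, since neighbouring bins of 1 pair of libraries are not replicates.

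**Figure D4:**
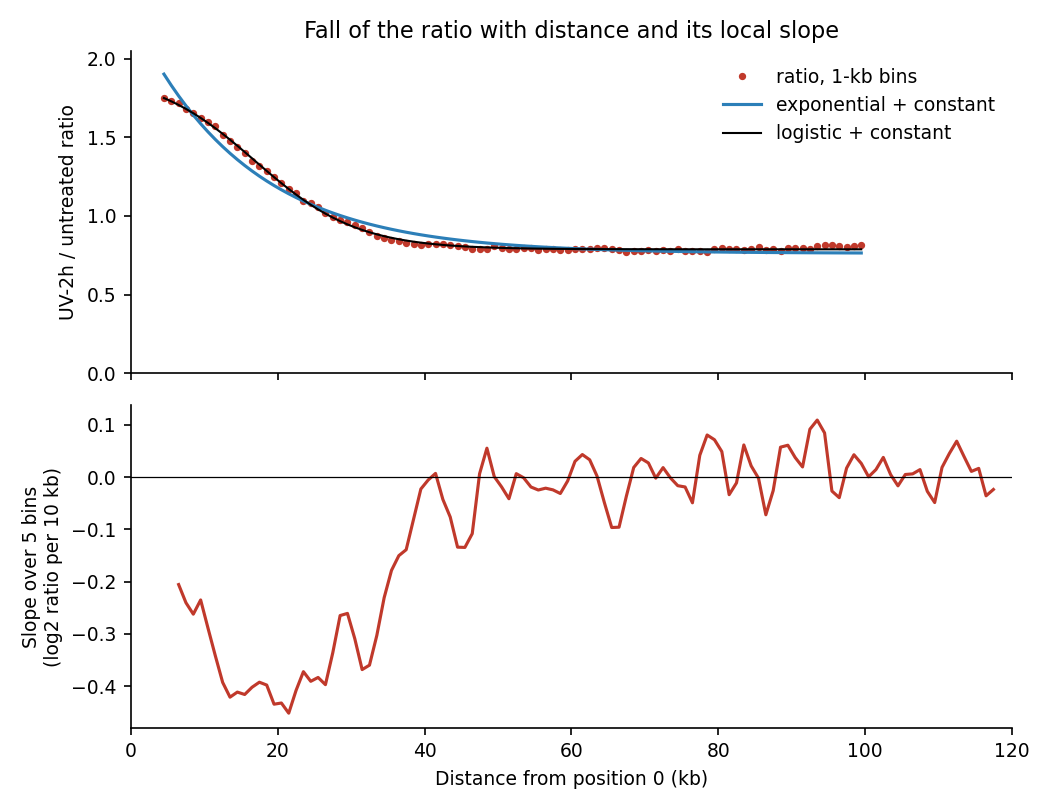
Top, the UV-2h/untreated ratio of scaled signal in 1-kb bins from 4 to 100 kb (points) with an exponential fall to a constant (blue) and a logistic fall to a constant (black). Bottom, the local slope of the log2 ratio over 5 neighbouring bins, in log2 units per 10 kb, which is lowest between 19 and 24 kb and scatters about 0 beyond 50 kb.

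The ratio levelled off near 37 kb. The earliest bin from which 5 bins in a row lay within 5% of the far level (at most 5% above it) was that from 37 to 38 kb (0.826, 0.820 to 0.833), close to the joint of the lines in the log2 ratio (37.5 kb) and beyond that of the lines in the ratio itself (33.5 kb). A tolerance of 10% placed it at 34 kb and one of 2% at 50 kb, so the approach to the far level was gradual over about this range. The lowest downstream bin was that from 78 to 79 kb, at 0.773 (0.766 to 0.780). In windows of 10 kb the ratio was 0.807 from 40 to 50 kb, 0.790 from 50 to 60 kb, 0.785 from 60 to 70 kb and 0.781 from 70 to 80 kb.

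Beyond 80 kb the ratio turned slightly upward. The ratio was 0.790 from 80 to 90 kb, 0.806 from 90 to 100 kb, 0.816 from 100 to 110 kb and 0.820 (0.817 to 0.822) from 110 to 120 kb. The log2 slope from 80 to 120 kb was 0.018 per 10 kb with a counting SE of 0.00094. The rise from the window at 70 to 80 kb to the last window thus exceeded counting error, although it was small beside the earlier fall.

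The level reached far from the start depended on whether a background was subtracted from the profiles. In the untreated library the signal from -2 to -1 kb was 2.22, lower than in any bin downstream, where the last one had 2.46. In the UV-2h library the signal from -2 to -1 kb was 1.85, and 19 of the 120 downstream bins were at or below it, the earliest at 88 to 89 kb and 5 in a row from 104 kb. When the lowest kilobase of each profile (2.22 in untreated cells and 1.74 at 2 h) was subtracted, the maximum stayed at 4 to 5 kb with a ratio of 2.37 and the crossing stayed at 27 kb. The fall then had a rate of -0.67 per 10 kb in log2, and the level from 60 to 100 kb was 0.336.

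After that subtraction the ratio kept falling to the end of the profile. It went from 0.541 (40 to 50 kb) through 0.397 (60 to 70 kb) and 0.309 (80 to 90 kb) to 0.245 (100 to 110 kb) and 0.134 (110 to 120 kb). The level-off rule, which sets only an upper bound, was met from 73 kb, but no level stretch followed. The lowest kilobase of UV-2h lay at 118 to 119 kb, so this subtraction sets the far end of that profile to about 0 by construction. The true background is not given by the files, and its part in the level reached beyond 37 kb was not tested.

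Expressed as shares of the signal between 0 and 100 kb, more of the UV-2h signal lay toward the start. The shares of each library have a fixed total, so a gain in 1 part is matched by a loss elsewhere by construction. The first 10 kb held 13.2% of the untreated and 20.7% of the UV-2h signal between 0 and 100 kb, a difference of 7.51 percentage points. The window from 10 to 20 kb added 4.50 points and that from 20 to 30 kb 0.75 points. In that last window the deposited signal was nevertheless lower in UV-2h (3.31) than in untreated cells (3.55). The first kilobase contributed only 0.22 points. Each window from 40 to 50 kb onward up to 90 to 100 kb differed by -2.04 to -1.55 points at 2 h. The loss of share was thus spread nearly evenly over these far windows, while the gain of share was concentrated in the first 20 kb. The cumulative gap was widest at 27.1 kb, where 31.4% of the untreated signal and 44.3% of the UV-2h signal had been passed. The distance that held the first 25% of the signal was 21.05 kb in untreated cells and 12.5 kb at 2 h, and the distance that held 75% was 69.97 kb and 62.6 kb.

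The 5 later UV libraries, each divided by the same untreated library, give a scale for the 2 h shape. Because they share that library their ratios are not independent, and they are set side by side without a test. The maximum ratio was 1.75 in UV-2h, 1.41 in UV-5h, 1.32 in UV-8h, 1.27 in UV-10h, 1.25 in UV-12h and 1.09 in UV-24h. The log2 slope before the joint was -0.36 per 10 kb in UV-2h, -0.22 in UV-5h, -0.15 in UV-8h, -0.11 in UV-10h, -0.10 in UV-12h and -0.026 in UV-24h. In scaled signal the 2 h curve was the highest of the 6 in every 1-kb bin from 0 to 21 kb. It also had the steepest slope before the joint. In the kilobases upstream of position 0 the scaled 2 h curve was the lowest of the 6. These ranks by height depend on the scaling and were not taken on the values as deposited, where the first kilobase of UV-2h had a ratio of 0.955. In UV-2h the ratio was within 5% of its own level from 60 to 100 kb from 37 kb onward. In UV-5h, UV-8h, UV-10h and UV-12h this point was reached between 60 and 63 kb, and in UV-24h, whose ratio spanned a small range, at 26 kb. The ratios of UV-5h to UV-12h were still falling inside the window that sets this level. In UV-12h the ratio was 0.911 in the bin at 60 kb and 0.831 in that at 99 kb. The rule sets only an upper bound, so the place from 60 to 63 kb follows from the window and marks no level stretch. After the joint of the lines, which lay between 37.5 and 48.5 kb in the 6 libraries, the log2 slope per 10 kb was -0.0015 in UV-2h, between -0.043 and -0.038 in UV-5h to UV-12h, and -0.0085 in UV-24h. The small slope of UV-2h spans a fall from 40 to 60 kb (-0.033 per 10 kb) and a rise from 80 to 100 kb (0.027).

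In scaled signal the curves from 2 h to 12 h met at the far end. Their ratios there were not taken on the values as deposited. The mean deposited signal over the profile was 2.72 in UV-2h and 3.16 in UV-12h, so the meeting is described for scaled signal only. The window from 40 to 50 kb had a scaled ratio of 0.807 in UV-2h, 0.918 in UV-5h and 0.970 in UV-12h. For the window from 60 to 70 kb these ratios were 0.785, 0.838 and 0.894. Over the last 20 kb, from 100 to 120 kb, UV-2h had a ratio of 0.818 (0.816 to 0.820), UV-5h and UV-8h one of 0.821, UV-10h one of 0.819 and UV-12h one of 0.822 (0.821 to 0.824), whereas UV-24h had one of 0.958. The 2 h library therefore differed from those at 5 to 12 h in the shape of its curve between the start and about 100 kb, while its scaled level beyond 100 kb was close to theirs.

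**Figure D5:**
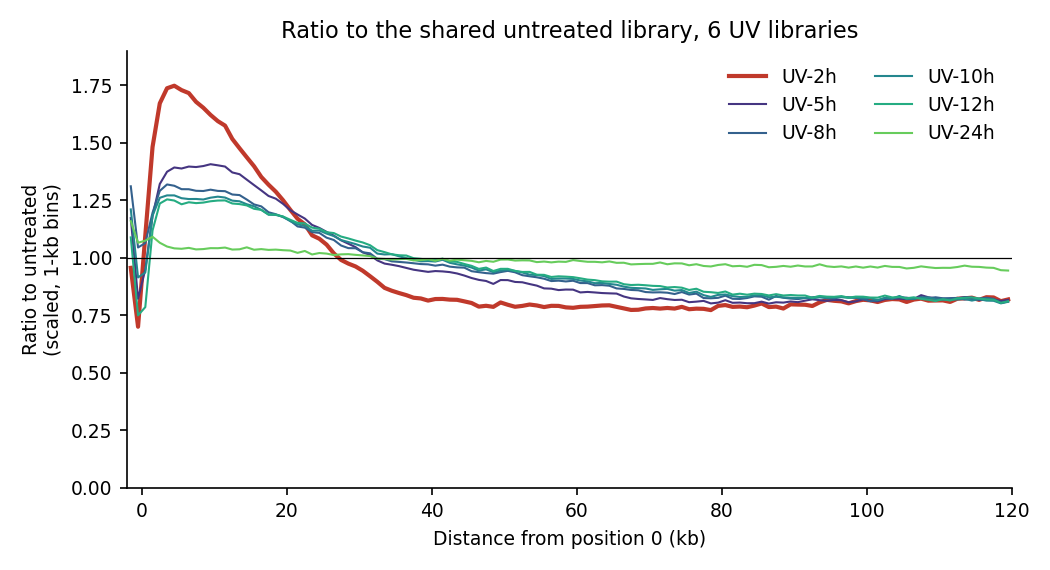
Ratio of scaled signal to the shared untreated library in 1-kb bins for the 6 UV libraries, with UV-2h in bold red, against distance from position 0 in kb. UV-2h has the highest maximum (1.75) and is flat from about 37 kb, and from 100 to 120 kb the 1-kb bins of the curves from 2 to 12 h lie between 0.802 and 0.838.

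The shape at 2 h changed little when the 24 h library took the place of the untreated library as denominator. The maximum was then 1.68, in the same bin from 4 to 5 kb, the crossing was again at 27 kb and the joint of the lines lay at 36.5 kb. The first kilobase had a ratio of 1.02 and the 2 kb upstream one of 0.715 in that comparison. It is not a separate finding of the shape, because its numerator is the same UV-2h library. The UV-24h/untreated ratio also spanned a small range, with a maximum of 1.09 and a far level of 0.970. A similar shape downstream was therefore largely fixed in advance.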

How the data were processed

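GRO-seq was measured in 1 library per condition. The authors' deposited files hold 1 profile each, the signal (coverage averaged over genes, on a linear scale) at 122001 positions from -2000 on. Per the submitters' processing notes, BWA 0.5.9 and the build hg19 (GRCh37) were used. The genes averaged, the strand, the read extension and the scaling between libraries are not given in the sources used here. In every library the step-to-step changes of signal were most negatively autocorrelated 250 bases apart, which was taken as the length of the extended reads, and reads were recovered as coverage divided by the step of the values and by 250. Reads in overlapping genes count more than once, and PCR duplicates cannot be recognised, so 95% intervals cover counting error only.

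Each profile was divided by its sum from 0 to 99999, binned by means in 1-kb bins (100-bp bins near the start), and UV-2h was divided by untreated. Crossing, midpoint and level-off needed 5 bins in a row. Lines and curves were fitted by least squares (Python 3.11.15, NumPy 2.4.6, SciPy 1.17.1) from the maximum to 99999. The code was checked on simulated profiles. The measures, windows and alternatives were chosen with earlier results of these data known, and the bins named are those the measures point to. No gene was named, and the reference genome was not used.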

Additional observations from a re-analysis of the deposited data

How the results depend on the processing

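A value counted as moved when it left its narrow 95% counting interval. No paired analysis was possible because there is 1 library of each kind. The place of the maximum stayed at 4 kb under background subtraction, medians and both other bin widths. Scaling changes every ratio of a profile by 1 factor and so leaves the places of the maximum, midpoint, joint and level-off as they are.

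On the values as deposited the ratio was 0.683 upstream, 0.955 in the first kilobase (reversed), 1.52 at the maximum and 0.688 from 60 to 100 kb, with the crossing at 22 kb. Scaling to the whole profile gave 0.806, 1.13, 1.797 and 0.812, with the crossing at 29 kb. Scaling without the first kilobase moved only the far level, to 0.792. Background subtraction gave 0.474 upstream, 0.986 in the first kilobase (reversed), 2.37 at the maximum and 0.336 far away, with the midpoint at 22 kb, the level-off rule met at 73 kb, the joint at 39.5 kb, a slope of -0.67 per 10 kb and a decay length of 20.3 kb. The cause of the reversal under subtraction was not tested.

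Medians gave 0.830 upstream, 1.17 in the first kilobase and 0.784 far away. Bins of 2000 bp put the crossing at 28 kb and the midpoint at 20 kb, with a slope of -0.36 per 10 kb, as did 500-bp bins (-0.36). Fits to 120 kb gave a slope of -0.36 per 10 kb and a decay length of 14.7 kb. A far level taken from 80 to 120 kb was 0.807, with level-off at 35 kb. Tolerances of 2% and 10% put level-off at 50 and 34 kb. A logistic fit, added after seeing the data, had its midpoint at 16.9 kb against 19 kb. Counting error was small for the ratios taken without background subtraction. With it the counting interval was wide at the far end, where the ratio from 110 to 120 kb was 0.134 (0.119 to 0.150). The absence of replicates limits every ratio given here.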

Other observations

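The untreated profile had a low rise between 22 and 33 kb. Within the stretch from 15 to 30 kb its signal was lowest at 22 to 23 kb (3.50), and it then rose to 3.81 at 32 to 33 kb, with a slope of 0.058 signal units per kb between 28 and 33 kb. In the UV-2h library signal was falling there, but the fall was slower between 28 and 33 kb (-0.018 per kb) than before it, from 23 to 28 kb (-0.081), or after it, from 33 to 38 kb (-0.050). The middle one of these 3 slopes was the highest in each of the 7 libraries. These values have no replicate and no explanation was tested.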
